A study of Homo sapiens with 7 samples.

Results

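RAD21 loops were compared between wild-type (WT) HEC-1-B cells, a human uterine adenocarcinoma line, and HEC-1-B cells labelled ZNF143KO. The members are the 2 RAD21 loop lists, with 16788 loops in WT and 10804 in ZNF143KO, 27592 of the 135475 loops in the 7 lists of the series. Both were made by HiChIP, a method that ligates neighbouring DNA ends in crosslinked nuclei, pulls down the chromatin with an antibody (here against RAD21) and sequences the ligated pairs. The labels of these samples name no treatment of their own, and each group is 1 library, so there was no replicate spread to test against, and every interval below covers counting error only. The labels do not say whether the ZNF143KO cells are a single clone, and a loop list shows neither the level of ZNF143 nor markers of uterine epithelium, so genotype and cell type were not checked from these data.

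Cohesin is a ring-shaped complex that extrudes DNA loops, and RAD21 is the subunit that closes the ring. Extrusion stops preferentially where CTCF is bound, which leaves loops between pairs of anchors. Smaller loops often lie nested inside larger ones, and an anchor can be joined to several partners. ZNF143 is a zinc-finger protein that binds mainly at promoters.

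A loop's count is the deposited whole-number count for its pair of anchors, taken as supporting read pairs. The WT counts summed to 74410 and the ZNF143KO counts to 33460, and the depth of the libraries is unknown. The lists hold no loop under a count of 2, so "not listed" is not the same as absent. WT loops were called kept when both anchors lay within 5 kb of the anchors of a ZNF143KO loop, and lost otherwise. ZNF143KO loops without such a WT loop were called gained. Of all WT loops 65.9% were lost, and of all ZNF143KO loops 49.1% were gained. For the loops per anchor, anchors of both lists under 5 kb apart were joined into 18285 anchor sites, and a partner is a site at the other end of at least 1 loop. Positions are hg19 (GRCh37), counted from 1. Gene names beside them were placed from general knowledge of that map, after the loops were known and with no annotation of the build at hand. They mark a neighbourhood, were not read from these data and give no distance to a gene start. The one check made was that all 65 symbols lay on the same chromosome in the RefSeq gene table.

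Loops per anchor were lower in ZNF143KO. An anchor site had 2.12 partners on average in WT (14698 sites) and 1.71 in ZNF143KO (11808 sites), a ratio of 0.808. Sites with a single partner made up 51.9% of WT and 62.8% of ZNF143KO sites. Hub sites, with 5 or more partners, made up 8.76% of WT sites (1288) and 4.06% of ZNF143KO sites (479). They held 27.4% of all loop ends in WT and 14.9% in ZNF143KO. The WT counts were then thinned at random to the summed count of ZNF143KO, which left 8798 loops at 9603 sites, fewer than in ZNF143KO. In this thinned list the mean was 1.72 partners, the share of single-partner sites 62.2% and the share of hubs 4.33%. The ratio of the means was then 0.992.

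**Figure D1:**
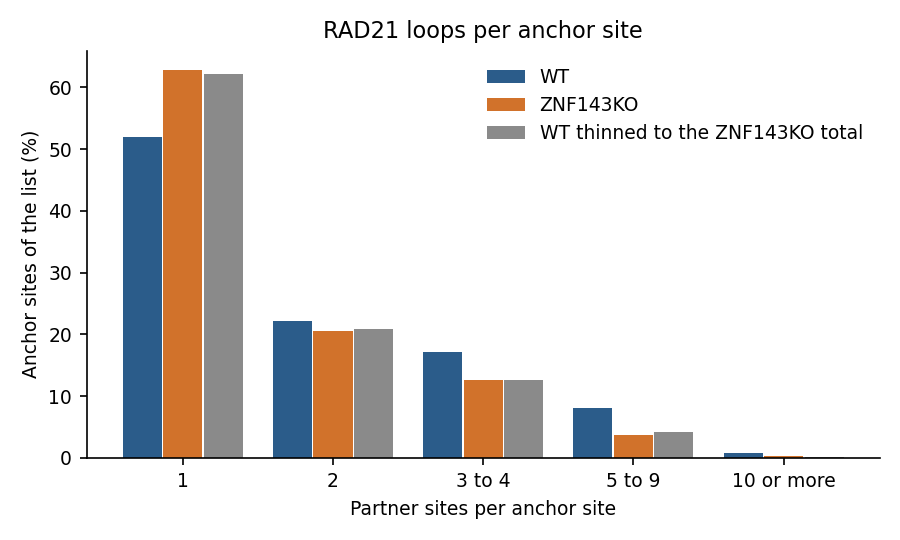
Share of anchor sites (%, vertical axis) by number of partner sites (horizontal axis) for RAD21 loops in WT, ZNF143KO and WT thinned at random to the ZNF143KO total (mean of 20 draws). Single-partner sites are 51.9% in WT, 62.8% in ZNF143KO and 62.2% in thinned WT, and the ZNF143KO bars are closer to thinned WT than to WT in each class.

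The share of sites listed again was higher with more partners, which follows in part from the definition, since any 1 loop lists a site. Of the 7633 WT sites with 1 partner, 39.3% (38.2 to 40.4) had any loop in ZNF143KO, against 94.2% (92.8 to 95.4) of the 1180 sites with 5 to 9 partners and all 108 sites with 10 or more. Single links were kept more often there as well, 24.6% of links at sites with 1 partner and 43.8% at sites with 10 or more. The mean WT count per link also differed, 3.44 at the former and 9.09 at the latter, and its part in this order was not tested. Among the 108 largest hubs, 98 had fewer partners in ZNF143KO, 3 the same number and 7 more. Fewer were also found at 1045 of 1180 sites with 5 to 9 partners and 2083 of 2519 with 3 to 4. A site with 1 partner can have fewer only by not being listed, as at 4634 of 7633. Mean partners were 11.8 in WT and 6.83 in ZNF143KO at the largest hubs, and 3.36 and 1.65 at sites with 3 to 4. Hubs were chosen by WT partners, so the 98 are not read as particular to them.

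The site with the most partners in both lists lay at NR4A1, an orphan nuclear receptor gene, on chromosome 12, 52413549 to 52420293. It had 21 partners in WT and 18 in ZNF143KO, of which 15 were the same, with summed counts of 440 and 182. The site at CEBPB, a leucine-zipper transcription factor gene on chromosome 20 (48795327 to 48810030), had 19 WT and 10 ZNF143KO partners, 8 of them the same, with summed counts of 342 and 110. At BCL6, which encodes a transcriptional repressor (chromosome 3, 187455731 to 187466753), 16 partners compared with 12, and 7 were the same. All 3 were hubs in both lists.

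Other hubs lost most of their partners. A site near TFEC and TES on chromosome 7 (115777236 to 115779436) had 14 partners in WT, 13 of them to its right, and 3 in ZNF143KO, and its summed count was 59 and 8. A site in THADA on chromosome 2 (43710868 to 43712425) had 12 and 2 partners, with summed counts of 64 and 12. The site at COPZ2, a coat-protein subunit gene on chromosome 17 (46095142 to 46105226), had 16 and 6 partners. All 6 had been WT partners, and the farthest lay 856 kb away in WT and 179.6 kb in ZNF143KO.

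Of the 8221 sites with loops in both lists, 1263 had more partners in ZNF143KO, 3785 fewer and 3173 the same number, and 3587 further sites were listed in ZNF143KO alone. The largest difference upwards was 6 partners, at several sites. One lay at DHX8, an RNA helicase gene on chromosome 17 (41560333 to 41562072), which had 5 partners in WT and 11 in ZNF143KO. All 5 WT partners were kept, and its summed count was 153 in WT and 70 in ZNF143KO, close to the ratio of the summed counts of the lists (0.450). A site at WNT9A, which encodes a WNT ligand (chromosome 1, 228133330 to 228135195), was not listed in WT and had 6 partners in ZNF143KO with a summed count of 12. A site at AOC2, an amine oxidase gene (chromosome 17, 40994142 to 40998919), had 4 and 9 partners, 3 of them the same, with summed counts of 29 and 25. A site near GLI2, a transcription factor of hedgehog signalling (chromosome 2, 121452478 to 121454315), had 13 and 15 partners, 7 of them the same, and its summed count was 261 and 117, also close to that ratio.

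The side of the partners was read at sites with several of them. Among sites with at least 2 partners, 43.3% (42.2 to 44.5) in WT and 47.1% (45.6 to 48.6) in ZNF143KO had all of them on a single side. At sites with 5 or more partners the shares were 17.2% (15.3 to 19.4) and 16.7% (13.6 to 20.3). The share was thus lower with more partners, and the lists were not compared at equal partner numbers. No share for sides drawn at random was computed. Of the 1180 single-sided WT sites that also had at least 2 partners in ZNF143KO, 794 kept the same side, 375 had partners on both sides and 11 pointed to the opposite side. A site with a kept partner cannot point the opposite way, so this count says little about exchange of side, for which the sites without a kept partner are given further on.

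Nested loops were less frequent in ZNF143KO. For this count loops were written as pairs of sites, 15573 in WT and 10103 in ZNF143KO, and a pair was called nested when both its sites lay inside or on the sites of a longer pair of the same list. In WT 72.2% (71.5 to 72.9) of pairs were nested and in ZNF143KO 60.3% (59.4 to 61.3), a difference of -11.9 percentage points (-13.1 to -10.7). Nesting without a shared site was less common, 33.7% and 27.3%. A WT pair lay inside 2.37 others on average and a ZNF143KO pair inside 1.54. Pairs that neither held another nor lay inside another made up 9.63% of WT and 18.9% of ZNF143KO pairs. After thinning of WT to the same summed count the difference was 0.0733 points (-1.35 to 1.50).

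Outer loops were kept less often than inner loops at low counts. Among WT pairs with a count of 2 to 4, 13.5% (12.2 to 14.9) of outer pairs, which held others and lay in none, were kept, against 23.4% (22.01 to 24.8) of inner pairs, which held none. At 5 to 9 counts the shares were 43.4% (37.6 to 49.4) and 55.2% (51.9 to 58.4). At 10 or more they were 85.5% (75.9 to 91.7) of 76 outer pairs and 86.7% (83.2 to 89.5) of 443 inner pairs, intervals that overlapped. Outer pairs were longer in each class, with medians of 254.8 and 73.9 kb in the last class. Where both loops of a nest had 10 or more counts (784 combinations, which share loops), both were kept in 580, the outer alone in 89, the inner alone in 97 and neither in 18.

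**Figure D2:**
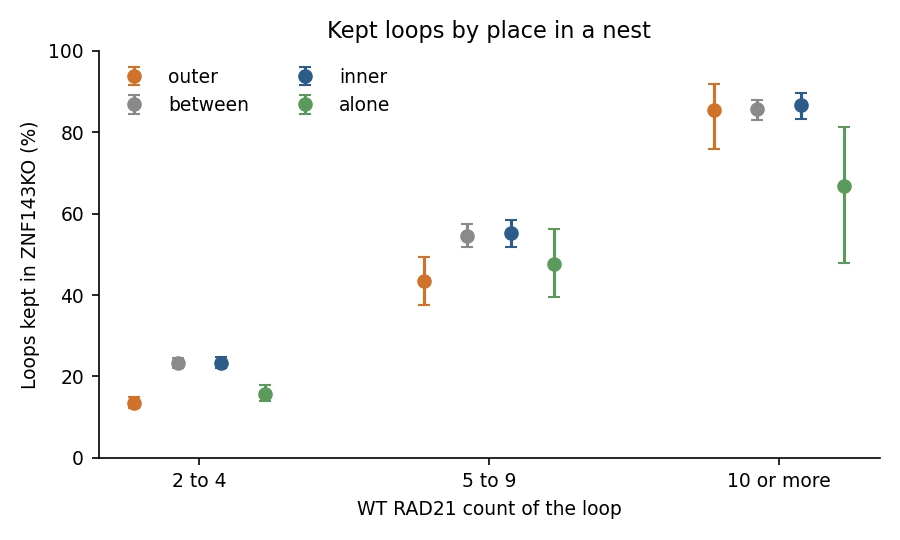
Share of WT RAD21 loops kept in ZNF143KO (%, vertical axis) by WT count (horizontal axis) for outer, between (inside a loop and holding one), inner and lone loops; points are shares and bars 95% Wilson intervals. Outer loops lie below inner loops at 2 to 4 counts (13.5% and 23.4%) and at 5 to 9 counts, and the intervals overlap at 10 or more.

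The deepest nest shared by the lists ran from the NR4A1 site on chromosome 12 towards the keratin genes. The pair from NR4A1 to a site at KRT8 (53296747 to 53299588), a keratin of simple epithelia, spanned 881 kb with a count of 3 in WT and 2 in ZNF143KO. It held 57 pairs in WT and 48 in ZNF143KO, of which 27 were the same, and the summed counts inside were 558 and 283. The WT pair with the most inside lay further along chromosome 12, from 56511455 to 57638329, with a count of 2 in WT and no ZNF143KO pair. Its span held 75 WT and 47 ZNF143KO pairs, 33 of them the same.

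In a nest on chromosome 3 the inner loops had a lower count ratio than the outer loop. The outer loop joined 187036034 to 187038298 with 187396075 to 187398314, a span of 360 kb that holds RTP4 and SST, the somatostatin gene, and lies between MASP1 and BCL6. Its count was 136 in WT and 30 in ZNF143KO, a ratio of 0.221. Inside it WT had 12 loops with a summed count of 116, and ZNF143KO had 3 with a summed count of 9, a ratio of 0.0776. Loops not listed in ZNF143KO entered this sum as 0, which lowers the ratio. Among the 10 kept loops with the highest WT counts, 8 had WT loops inside. Only this one had an inner ratio below the outer. The inner site at 187121027 to 187123122 had WT counts of 22 with the left outer anchor and 23 with the right one, and ZNF143KO counts of 3 and not listed. The inner site at 187224413 to 187226465 had WT counts of 24 with the left and 10 with the right outer anchor and no loop in ZNF143KO. None of these 4 loops was in a CTCF list of either genotype, whereas the outer loop was, with CTCF counts of 117 in WT and 33 in ZNF143KO. Inner loops with a CTCF loop in WT were lower or lost as well, except for 1. The site at 187333272 to 187335078 had counts of 11 and 2 with the left outer anchor (CTCF 12 and 3) and of 4 in both lists with the right one (CTCF 8 and 2). The site at 187311338 to 187312849 had WT counts of 4 and 2 with the left and right outer anchors and neither loop in ZNF143KO. Both were in the CTCF lists of both genotypes (3 and 3, 2 and 2). Counts this close to the listed minimum of 2 can drop out of a list with a lower summed count. These 2 loops therefore do not show a loss particular to RAD21.

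**Figure D3:**
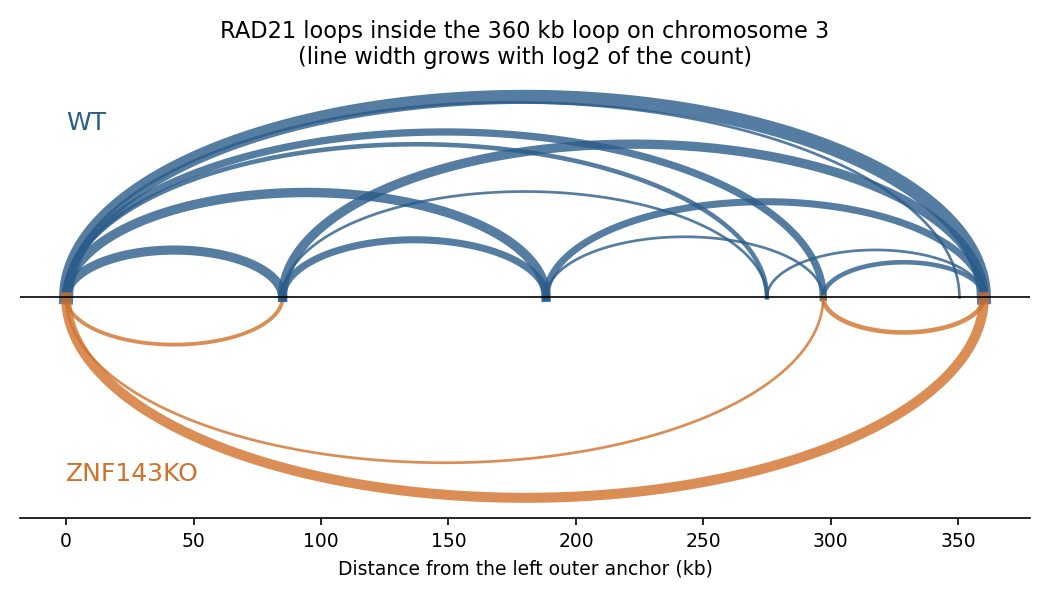
RAD21 loops inside and including the 360 kb loop on chromosome 3, drawn as arcs against distance from the left outer anchor (kb), WT above and ZNF143KO below, with line width growing with log2 of the count. WT has 12 inner loops (summed count 116) and ZNF143KO 3 (summed count 9), while the outer loop is present in both with counts of 136 and 30. Loops under the listed minimum of 2 are not drawn.

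Anchors that changed partner were counted next. Loops were listed in both genotypes at 8221 sites, 55.9% of WT and 69.6% of ZNF143KO sites. The partners were the same in both lists at 1557 of these (18.9%). Another 2230 sites (27.1%) had kept and lost partners, 728 (8.86%) kept and gained ones, and 1850 (22.5%) all 3 kinds. At 1856 sites, 22.6% (21.7 to 23.5), no partner was kept. These sites had few counts, since 712 of them had a summed WT count of 2 and 1153 a summed ZNF143KO count of 2. Summed counts of 5 or more in both lists were found at 102 of them.

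**Figure D4:**
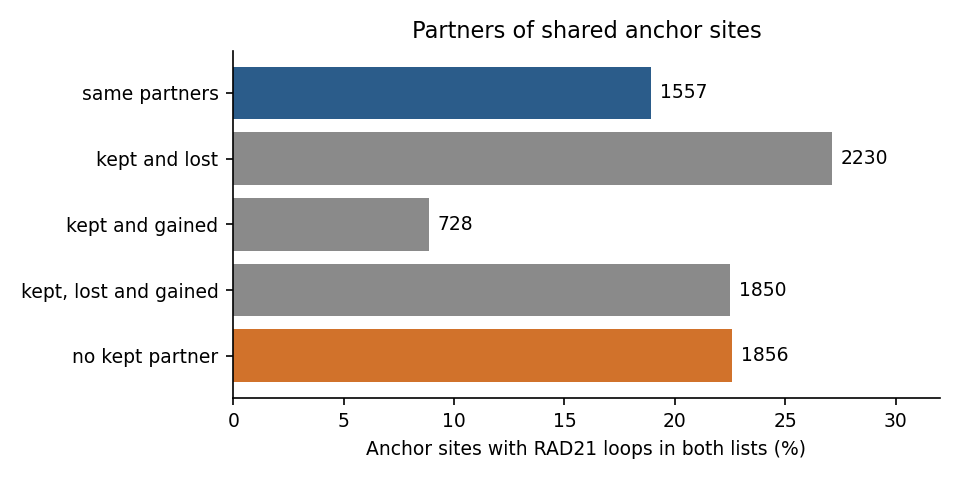
Share of the 8221 anchor sites with RAD21 loops in both lists (%, horizontal axis) by what happened to their partners; numbers beside the bars are sites. Sites with no kept partner (1856) outnumber those with the same partners (1557).

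Anchors of the other proteins were then read at these sites. A WT CTCF anchor lay at 74.1% (72.0 to 76.0) of the sites with no kept partner and 77.4% (75.3 to 79.4) of those with the same partners, a difference of -3.31 points (-6.17 to -0.416). A WT ZNF143 anchor lay at 31.8% (29.8 to 34.0) and 29.8% (27.6 to 32.1), a difference of 2.04 points (-1.07 to 5.14) that includes 0. Sites with kept, lost and gained partners had both anchors more often, CTCF at 96.2% (95.2 to 97.0) and ZNF143 at 60.4% (58.2 to 62.6). These sites also had more WT partners, 4.39 on average against 1.64 and 1.17. Sites listed in WT alone had both less often, CTCF at 52.9% (51.7 to 54.2) and ZNF143 at 20.4% (19.5 to 21.4). The distance from old to new partners is limited by the definition, since partners under 5 kb apart were joined and counted as kept. Among the sites left, the nearest gained partner lay a median of 129.5 kb from a lost one, and within 20 kb of it at 11.2%. Where all partners were on a single side in each list (1347 sites), the side was the same at 60.1% (57.4 to 62.6). The median span ratio of gained to lost partners was 0.947 (0.880 to 1.02), an interval that includes 1.

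The 10 best supported of these sites all had a CTCF anchor in ZNF143KO, against 63.4% of all sites with no kept partner, 9 had one in WT and 5 had a WT ZNF143 anchor. Of their 31 lost partners 19 still had another loop in ZNF143KO, beside 55.9% of all WT sites. Of their 32 gained partners 15 already had one in WT, beside 69.6% of all ZNF143KO sites. The best supported lay in PHACTR4, a regulator of actin and phosphatase 1 (chromosome 1, 28735429 to 28737455). Its WT partners had counts of 7, 4, 3 and 2, and its 5 ZNF143KO partners 4, 2, 2, 2 and 2. The site at PPP1R9B, another gene of a phosphatase 1 binding protein (chromosome 17, 48226922 to 48230237), had 4 WT partners, with counts of 4, 3, 3 and 2. They included a site at the collagen gene COL1A1 (48274944 to 48279943, count 3) and lay on both sides. In ZNF143KO its 3 partners, with counts of 5, 3 and 2, all lay to the left. With a 10 kb extension the site containing it had 8 WT and 6 ZNF143KO partners, 5 of them the same.

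A site at GAS7 (chromosome 17, 9827554 to 9828853) had WT partners with counts of 7, 2 and 2 and ZNF143KO partners with counts of 4, 4 and 3, on both sides in each list. The site at LRRC43 (chromosome 12, 122674035 to 122676319) had 4 partners in each list, all to its left, with counts of 2 or 3. At MTCL2 (chromosome 20, 35490915 to 35492864) 4 WT partners with counts of 3, 2, 2 and 2 compared with 2 ZNF143KO partners with counts of 7 and 2.

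A site at ABCC5, an ATP-driven export pump (chromosome 3, 183734323 to 183736050), had a WT ZNF143 anchor, as did those at PHACTR4 and PPP1R9B. Its WT partners lay 122 kb to the left (count 10) and 114.9 kb to the right (count 3). In ZNF143KO it was joined instead to sites 112.7 kb to the left (count 4) and 157 kb and 217 kb to the right (count 2 each). The lost and the gained left partner lay 7.75 kb apart, and with a 10 kb extension they became 1 site and the partner was kept. At that extension 3 of the 10 sites had a kept partner, namely those at ABCC5, at PPP1R9B and on chromosome 22 (39888936 to 39893211).

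Strong loops, with 10 or more counts in WT, numbered 1251, and 1080 of them were kept, 86.3% (84.3 to 88.1). ZNF143KO had 244 loops of that strength, and WT after thinning to the same total 455 on average. The median ratio of the ZNF143KO to the WT count over strong kept loops was 0.308 (0.300 to 0.333) and 27 of 1080 had the higher count in ZNF143KO. The share over all kept loops was 21.3%, but it is no yardstick for strong loops, since a kept WT loop at the listed minimum of 2 cannot have a lower count in ZNF143KO. With WT thinned to the ZNF143KO total the median ratio was 0.500 (0.465 to 0.537), 93.5% of the loops then strong were kept, and 47.15 of 425.6 kept loops had the higher count in ZNF143KO (means of the draws). The ratio was lower at higher counts: 0.500 at 5 to 9, 0.333 at 10 to 19 and 0.273 at 20 to 49. A count of at most 0.5 times the WT count was found for 35.5% of all kept loops. Loops chosen for high WT counts tend to have lower counts in any second list, so the values for the opposite choice are given too. ZNF143KO loops with 10 to 19 counts that matched a WT loop had a median ratio of 0.556, and those with 20 or more of 0.442, beside a ratio of the summed counts of the lists of 0.450. Of these loops 37 of 185 and 6 of 53 had the higher count in ZNF143KO, a larger share than the 27 of 1080 chosen by WT count.

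The lost strong loops differed from the kept ones in the CTCF lists. Of the 171 lost loops, which lay in 155 separate regions, 78.9% (72.2 to 84.4) were also listed as CTCF loops in WT, against 96.5% (95.2 to 97.4) of the kept ones. The reverse reading was chosen after the data were seen. By it, 88.5% (86.6 to 90.2) of the 1177 strong RAD21 loops with a WT CTCF loop were kept, and 51.4% (40.2 to 62.4) of the 74 without. The difference of 37.2 points (26.0 to 48.5) was 35.1 points (22.7 to 47.4) among loops of 10 to 19 counts, where median counts were 12 and 11. Of the 74, both anchors lay at a WT CTCF anchor in 6, a single anchor in 60 and none in 8. Lost strong loops had a WT ZNF143 anchor less often than kept ones, 60.2% (52.8 to 67.3) compared with 75.9% (73.3 to 78.4), a difference of -15.7 points (-23.6 to -8.18). Lost strong loops were longer, with a median of 171.8 against 134.4 kb. Strong loops without a WT CTCF loop, by contrast, were shorter than those with one, with medians of 110.1 and 140.3 kb. Median counts were 12 in the lost and 15 in the kept loops. At 20 or more counts, 353 of 367 loops with a WT CTCF loop and 7 of 12 without were kept. The part of count in these differences was read only in such count classes, and that of span was not tested.

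**Figure D5:**
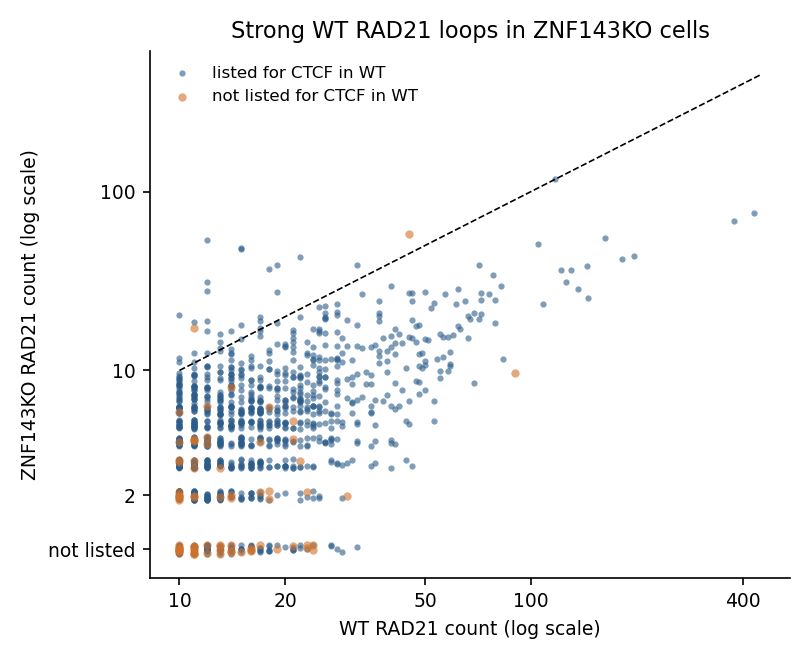
ZNF143KO count (vertical axis, log scale, lost loops at the bottom as not listed) against WT count (horizontal axis, log scale) for the 1251 strong WT RAD21 loops, with a small vertical jitter and the line of equal counts dashed. Loops listed for CTCF in WT are blue and the 74 others orange; 27 loops lie above the line.

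The 10 kept loops with the highest WT counts had ratios between 0.172 and 0.346, were all listed for CTCF in both genotypes and spanned 49.2 to 360 kb. The strongest joined chromosome 16, 55498344 to 55499850, to 55735210 to 55738250, around MMP2, a matrix metalloproteinase gene, and SLC6A2, the noradrenaline transporter gene (counts 432 and 78). Inside it, the left anchor had 3 further partners in WT and 5 in ZNF143KO. The second joined a site at PCDHA12, a clustered protocadherin of cell-surface identity, to a site on its right (chromosome 5, 140254134 to 140255839 and 140418923 to 140421630), with counts of 378 and 65. Loops around RALA, a small GTPase gene (chromosome 7, 196 and 45), and DZIP1L, a ciliary gene (chromosome 3, 182 and 43), had ratios of 0.230 and 0.236. The loop from the NR4A1 site to 52476702 to 52478085 had the highest ratio of the 10, 0.346 (162 and 56). The loop around SLC1A4, a neutral amino acid transporter gene (chromosome 2, 65144185 to 65268773), had counts of 145 and 26. The loop near TMEM135 (chromosome 11, 87063220 to 87133368) had counts of 144 and 39. The loop near KCNK5 and KCNK17, potassium channel genes (chromosome 6, 39133769 to 39278933), had counts of 126 and 30. The loop around HEXIM1 and HEXIM2, inhibitors of the elongation factor P-TEFb (chromosome 17, 43212095 to 43276348), had counts of 130 and 36. It held 6 WT loops with a summed count of 110, and 4 of them were kept with a summed count of 74. Its inner loops together had a ratio of 0.673, above the 0.277 of the outer loop. Of the 10 kept loops 8 had WT loops inside, and the inner ratio was above the outer one in 7 of them, the nest at SST being the 1 exception. The outer loops were chosen for high WT counts, which tends to lower their ratio. The size of this effect in these nests was not tested, so nothing is read from the 7. Some inner sums also compare different loops, as at SLC1A4, where summed inner counts of 2 and 11 had no loop in common.

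The 10 lost loops with the highest WT counts had counts of 32 to 23 and spanned 28.3 to 273 kb. In ZNF143KO both of their anchor sites still had other loops for 4, a single site for 5, and no site for 1. Over all 11058 lost loops the shares were 33.3%, 47.8% and 18.9%. CTCF loops were listed at 7 of them in WT and at 6 in ZNF143KO, each with the lower count in ZNF143KO, and 3 were in neither CTCF list. The first joined chromosome 8, 8886820 to 8889330, to a site at PPP1R3B, a glycogen-targeting phosphatase subunit gene (9007286 to 9009227), with a count of 32. The sites had 9 and 7 partners in WT and 1 and 3 in ZNF143KO. The loop on chromosome 15 (78405085 to 78406616 and 78532823 to 78535515, count 29) runs across IDH3A, a subunit of mitochondrial isocitrate dehydrogenase, and ACSBG1, an acyl-CoA synthetase. Its right anchor had other listed RAD21 partners in ZNF143KO, at sites 45.6 kb to the left (count 6) and 75.03 kb to the right (count 2). The loop itself was in both CTCF lists, with CTCF counts of 16 in WT and 6 in ZNF143KO.

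The third lost loop ran through TNIK, a kinase of the WNT pathway (chromosome 3, 170904649 to 170906332 and 171178104 to 171179436, count 28). Its right site had 3 WT partners and no loop in ZNF143KO, and the CTCF count of the loop was 14 and 3. The loop at HRCT1 (chromosome 9, 35881368 to 35884478 and 35910391 to 35912103) had RAD21 counts of 27 and not listed and CTCF counts of 28 and 2. The loop at MOXD1 and STX7, a syntaxin of endosome fusion (chromosome 6, 132599885 to 132806980, count 27), was also without a CTCF loop in ZNF143KO, having had a CTCF count of 31. The loop from ARFGEF1 to CPA6, a carboxypeptidase gene (chromosome 8, 68250940 to 68403615, count 24), was the one whose sites had no other RAD21 loop in ZNF143KO, although its CTCF loop was listed there with a count of 7 against 33. A loop near MAP3K1, a kinase of the JNK pathway (chromosome 5, 55932637 to 56031343, count 23), was in neither CTCF list. Its sites had 6 WT partners each and 0 and 1 in ZNF143KO. The same held for a loop on chromosome 11 (130523286 to 130698916, count 24). Its left site had 4 WT partners and none in ZNF143KO, while its right site had 6 partners in both. The remaining 2 were the inner loop of the SST nest and a loop near CEACAM21 on chromosome 19 (41954443 to 42070633, count 23, CTCF counts of 18 and 3). With a 10 kb extension the loop near CEACAM21 was matched by a ZNF143KO loop with a count of 6, and the other 9 stayed lost.

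The 10 gained loops with the highest ZNF143KO counts had 14 to 9 counts, which cannot be set against the 32 to 23 of the lost loops, since the lists differ in summed count. Multiplied by the ratio of the summed counts the lost counts came to 14.4 to 10.3, and by the median ratio of strong kept loops to 9.85 to 7.08, so the order of the groups turned with the scaling. For 5 of the 10 gained loops neither site had a RAD21 loop in WT, beside 13.7% of all 5310 gained loops and 12.3% of the 130 with 5 or more counts. Gained refers to the RAD21 lists alone. Of the 10, 5 were in the WT CTCF list, 7 in that of ZNF143KO and 2 in neither. Among those with neither site in WT, the loops on chromosome 14 (106023010 to 106148275) and chromosome 8 (12039689 to 12283484) had WT CTCF counts of 6 and 9. The first lay on chromosome 1 (1183441 to 1186796 and 1439604 to 1441656), with a RAD21 count of 14 and a CTCF count of 5 in ZNF143KO, and none in WT. A site at CYB5B, an outer mitochondrial membrane cytochrome gene (chromosome 16, 69457921 to 69459734, count 12), a site at EIF5A, a translation factor gene (chromosome 17, 7210508 to 7212304, count 9), and a site at HDAC7, a histone deacetylase gene (chromosome 12, 48212419 to 48215173, count 9), each had no loop in WT and 1 in ZNF143KO. Each was joined to a site that already had 5 to 7 WT partners. The loops at CYB5B and EIF5A were in the WT CTCF list, with counts of 5 and 4. In ZNF143KO the loop at CYB5B was not listed for CTCF, and that at EIF5A had a CTCF count of 4. The site near GLI2 gained a loop to 121766024 to 121767350 (count 9) that was in the CTCF lists of both genotypes, with counts of 10 and 4. A gained loop of 20.1 kb joined the regions of PCDHA10 and PCDHA12 (chromosome 5, count 10), both of which had other loops in WT. Others lay at genes known as near-identical copies and are given as uncertain, although the placement of their reads was not tested: POM121C and POMZP3 on chromosome 7 (count 10) and ZDHHC11B and ZDHHC11 on chromosome 5 (count 9).

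The 5 kept loops with the highest ZNF143KO counts above their WT counts had ratios of 1.31 to 3.27. The first, across MSTO1, YY1AP1 and DAP3 on chromosome 1 (155561136 to 155684331), had RAD21 counts of 45 and 59 and was listed for CTCF in ZNF143KO alone (count 41). The loop between CELA3B and CELA3A, neighbouring elastase genes that are near-identical copies (chromosome 1, 22306185 to 22332970), had 8 and 23 counts and is likewise given as uncertain, with read placement not tested. The loop from NUP93, a nuclear pore gene, to SLC12A3, a sodium chloride cotransporter gene (chromosome 16, 56826596 to 56902237), had RAD21 counts of 10 and 21 and CTCF counts of 11 and 5, opposite directions in the 2 kinds of list.

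The ratio of RAD21 loop numbers differed between chromosomes. It was lowest on chromosomes X (271 and 106 loops, 0.391), 4 (316 and 140, 0.443) and 9 (722 and 337, 0.467), and highest on chromosome 16 (504 and 407, 0.808). The CTCF loop ratio was 0.485 on chromosome 4, 0.555 on chromosome 9, 0.661 on chromosome X and 0.883 on chromosome 16. Copy number in the lines was not measured.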

How the data were processed

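HiChIP loop lists of RAD21 in WT and ZNF143KO HEC-1-B cells were compared, 1 library each. Lists of CTCF (both genotypes) and ZNF143 (WT) served for comparison, and 2 lists of CTCF-AID cells were not used. Each list deposited by the authors gives pairs of anchors with a whole-number count, not scaled to depth. Per the submitters' processing notes, hg19 and HiC-Pro were used. The loop caller, filters and pooling are not given in the sources used here. The WT RAD21 list had 8 columns and the ZNF143KO list 7, so a difference in how the lists were made and the genotype cannot be told apart.

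Loops were matched and anchors joined with a 5 kb extension and 1 bp overlap (Python 3.11.15, numpy 2.4.6, scipy 1.17.1). A match took the highest count of the matching loops. Shares carry 95% Wilson intervals, differences Newcombe intervals and medians order-statistic intervals. Read pairs may be PCR copies, and neighbouring loops have anchors in common, so neither counts nor loops are independent. The scripts were tested on simulated data. WT was thinned to the ZNF143KO total of 33460 by keeping 52.7% of counts and dropping loops under 2, as a mean of 20 draws.

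The text names the 10 lost, kept and gained loops with the highest counts, the 5 kept loops with the highest ZNF143KO counts above WT, the 5 sites with the most partners in each list and the largest differences, the 10 best supported sites without a kept partner, and the 5 deepest nests. A few of these, most of them without a gene placed, are not described. The members, lists and tests were chosen with earlier results of these data known. The planned share of loops with a transcription start at an anchor and the planned gene lists were not run, since no annotation of hg19 was at hand. The planned rule for genes (a start within 5 kb of an anchor) could not be applied for the same reason, and genes were placed from general knowledge after the loops were seen. A planned motif search in promoters is not reported, since promoters could not be joined to anchors by position.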

Additional observations from a re-analysis of the deposited data

How the results depend on the processing

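Values that kept their direction and interval are not repeated. No paired analysis was possible because each group is 1 library. The ratio of mean loops per site (0.808) was 0.803 with a 0 kb extension, 0.813 with 10 kb, 0.812 at a minimum count of 3 and 0.992 with WT thinned to the ZNF143KO total. The difference in nested loops (-11.9 points) was -16.3 at a minimum count of 3 and -6.35 for loops strictly inside, and with thinning it was 0.0733 (-1.35 to 1.50), an interval that includes 0. The share of shared sites with no kept partner (22.6%) was 24.4% with 0 kb, 21.0% with 10 kb, 15.1% at a minimum count of 3 and 24.0% with thinning. The share of strong loops kept (86.3%) was 84.2% with 0 kb, 74.98% at a minimum count of 3, 93.5% with thinning and 94.99% when strong meant 20 or more. The median count ratio of strong kept loops (0.308) was 0.351, 0.500 and 0.273 under the last 3 settings. The span ratio at sites without a kept partner (0.947) was 0.856 (0.763 to 0.926) at a minimum count of 3. The cause of these moves was not tested, except that a higher minimum leaves fewer loops. The difference in kept strong loops by CTCF listing, and its alternatives, were chosen after seeing the data; it stayed between 36.2 and 44.4 points. Leaving out chromosomes 4, 9 and X, also chosen afterwards, moved none of these results beyond its interval, and the mean loops per site were then 0.808 of WT. Gene starts could not be run. Over all, 20 of 39 values counted as unmoved. The unknown depth limits every statement on a loop that is not listed.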

Other observations

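Loops whose 2 anchors were equal in length to within 5 bp made up 0.631% of WT and 0.805% of ZNF143KO RAD21 loops. Among gained loops with 5 or more counts they were 6 of 130 (4.62%), and among kept loops with 10 or more counts in ZNF143KO and fewer in WT 3 of 43 (6.98%). The anchors of the loop on chromosome 7 from 64676281 to 64677638 and from 65186745 to 65188097, with RAD21 counts of 15 in WT and 49 in ZNF143KO, were 1358 and 1353 bp long. The role of repeated sequence in these loops was not tested.

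Of the 171 lost strong loops, both anchor sites still had loops in ZNF143KO for 72, 42.1% (35.0 to 49.6), a single site for 80 and no site for 19. Over all 11058 lost loops both sites were listed for 33.3% (32.4 to 34.2). Among the 4914 pairs of sites found in both lists, 936 were nested in WT alone and 231 in ZNF143KO alone.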
